A study of Homo sapiens with 6 samples.

Results

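Killer cell receptors that lack enzymatic activity hand their signal to a small set of enzymes and adaptors under the membrane, and 39 genes of that machinery were examined here. They were taken by symbol from a count table of 36601 genes, and 35 of the 39 were among the 12263 genes with more than 1 CPM (counts per 1000000 counts of a library) in at least 2 libraries. The list holds the Src, Syk and Tec family kinases, the SAP family, the LAT and SLP-76 adaptors, the VAV exchange factors, phospholipase C gamma with its diacylglycerol branch, phosphoinositide 3-kinase subunits, and the phosphatases and ubiquitin ligases that end the signal. They were listed by symbol and role rather than by a cutoff on their values, with earlier results of these data known.

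RNA was sequenced from NK-92, an established human line derived from a natural killer (NK) cell lymphoma and dependent on IL-2. Stable lines expressed either the control hairpin shCtrl or shmiR155HG, a hairpin directed at miR155HG, the transcript from which miR-155 is cut, and both groups had been stimulated with IL-2 at 1000 U/mL plus IL-12 at 10 ng/mL for 12 h. Each group had 3 libraries, and since no source used here says that they came from separate cultures, p-values measure the spread between these libraries, which may be technical. All libraries thus come from a single tumour line under 1 stimulus, with no unstimulated cells.

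In NK cells, an ITAM is a tyrosine motif carried by partner chains such as CD247. Src family kinases phosphorylate it, ZAP70 or SYK docks on it, and these kinases then phosphorylate LAT and SLP-76, which gather phospholipase C gamma and VAV and so start calcium, Ras and actin responses. SLAM family receptors, which bind one another or CD48 on neighbouring cells, instead recruit the small SH2 adaptors SAP and EAT-2, and SAP brings in FYN.

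Library totals ran from 33454786 to 39157264 counts, and the biological coefficient of variation between libraries was 8.71%. MIR155HG itself had 73, 67 and 62 counts in the shCtrl libraries and 28, 19 and 10 after knockdown (log2 fold change -1.78, SE 0.43, adjusted p = 0.0045, edgeR's quasi-likelihood test, as for all adjusted p-values below). Of 12 NK cell markers, 11 were above 1 CPM in every library, and CD7 was below 1 CPM in all of them. The T cell markers CD3D, CD3G, CD4, CD5, CD8A and CD8B stayed below 1 CPM in every library. CD3E, however, was at 327 to 340 CPM, and TRAT1 was at 3.49 to 4.37 CPM. Of the 5 B cell markers, PAX5 alone was above 1 CPM in every library, at 228 to 264 CPM in shCtrl and 340 to 344 CPM in shmiR155HG (log2 fold change 0.49, adjusted p = 1.7e-09). The summed NK markers lay between 4200 and 4327 CPM in shCtrl and between 3528 and 3681 CPM in shmiR155HG. GZMB alone lay at 1165 to 1244 CPM in shCtrl and at 511 to 571 CPM in shmiR155HG. GZMB, GZMA and PRF1 were lower and EOMES, TBX21 and KLRC1 higher, while NCAM1, CD2, KLRD1, NKG7 and GNLY were not called. Myeloid markers summed to 21.4 to 29.3 CPM against 15.8 to 21.8 CPM, and erythroid and platelet markers to at most 0.0598 CPM. The part of these differences in the results below was not tested, and in bulk RNA fewer cells of a type and less RNA per cell cannot be told apart.

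Of the 35 members tested, 5 were higher in shmiR155HG cells (LCK, LYN, CSK, GRAP2 and DGKZ) and 4 were lower (TXK, PLCG1, PLCG2 and DGKA), at an adjusted p under 0.05. These 9 members are 25.7% of those tested, beside 15.3% of all genes tested. By direction, 14.3% of the members were higher beside 7.26% of all genes, and 11.4% were lower beside 8.02%. With a filter of a mean of at least 5 CPM, 1856 of 9721 genes were called, and again 5 members were higher and 4 lower. In 13 members (37.1%) the 3 libraries of one group all lay outside the range of the other, beside 30.8% of all genes. The changes were small: the median size of the log2 fold change was 0.10 over the members and 0.12 over all genes tested, and the median signed change was 0.02 and 0.00. With the thresholds the study states (edgeR's exact test, an unadjusted P below 0.01 and a fold over 1.2), applied here to the deposited counts with edgeR's default dispersion estimate, GRAP2 was the single member called higher and no member was called lower, beside 4.49% and 3.8% of all genes. Apart from the study's thresholds, 17 alternative settings were tried. LCK, LYN, GRAP2 and PLCG2 were called under all 17, and each of the other 5 called members lost its call under at least 1.

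**Figure D1:**
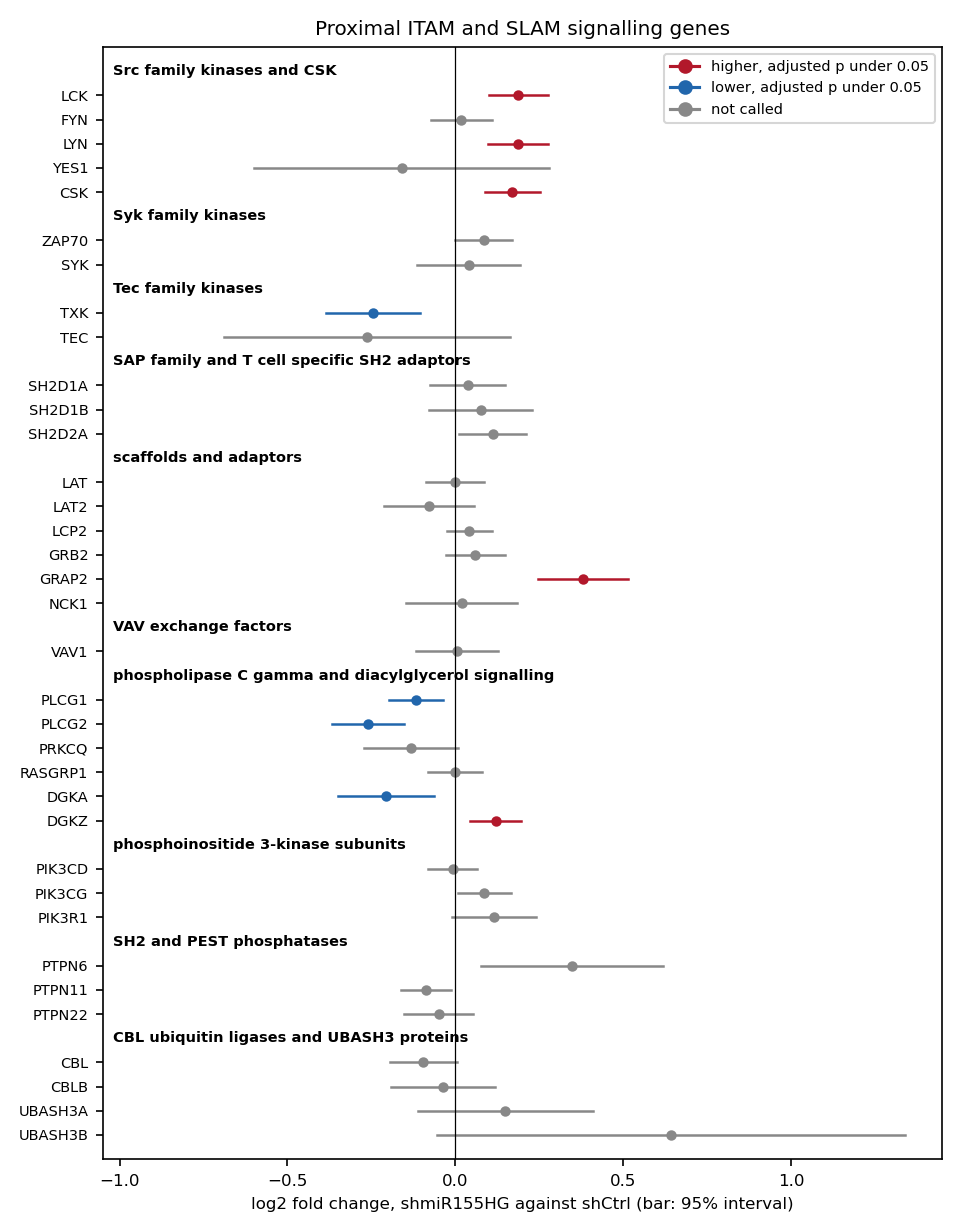
Log2 fold change of each of the 35 members tested, shmiR155HG against shCtrl (horizontal axis), grouped by role; dots are the edgeR estimates and bars their 95% intervals. Red dots mark the 5 members called higher, blue dots the 4 called lower, and the widest interval belongs to UBASH3B, the least abundant member tested.

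Among the Src family kinases of the list, LCK and LYN rose together while FYN did not pass the test. LCK (chr1:32251244-32286165, hg38, plus strand) is the lymphocyte Src kinase that phosphorylates ITAMs. It was measured at 136, 145 and 149 CPM in the shCtrl libraries and at 167, 162 and 162 CPM in the shmiR155HG libraries. All 3 knockdown libraries were above all 3 controls, and the level rose by 13.9% (log2 fold change 0.19, SE 0.04, adjusted p = 0.00306). LYN, a Src kinase that can act through activating and inhibitory receptors alike, had 140, 156 and 147 CPM in shCtrl and 171, 167 and 167 CPM in shmiR155HG. Its groups did not overlap either, and its log2 fold change was likewise 0.19, with an SE of 0.04 and an adjusted p of 0.00334. FYN, the Src kinase that SAP recruits to SLAM receptors, was at 131, 127 and 129 CPM in shCtrl and 133, 131 and 127 CPM in shmiR155HG. These ranges overlapped, and the 95% interval of the log2 fold change, -0.07 to 0.11, lies below the LCK estimate. YES1, a broadly expressed Src kinase, was at 4.66 to 8.97 CPM over the 6 libraries and was not called (log2 fold change -0.16, SE 0.21).

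CSK, the kinase that phosphorylates the inhibitory tail tyrosine of Src kinases and so holds them inactive, was higher together with LCK and LYN. Its levels were 277, 299 and 309 CPM in shCtrl and 320, 336 and 339 CPM in shmiR155HG. The groups did not overlap, and CSK rose by 12.5% (log2 fold change 0.17, SE 0.04, adjusted p = 0.00349). The CSK transcript has a high GC content of 63.4%. Fold changes rose with GC content over all genes (Spearman's rho 0.249 across 12216 genes, which are not independent) and over the members (rho 0.321 across 35). After a correction for GC content, chosen after seeing the data, the CSK log2 fold change was 0.09 and no longer passed the test (adjusted p = 0.0802).

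Neither Syk family kinase was called. ZAP70, which docks on phosphorylated ITAMs, was at 212.8, 204.2 and 229.5 CPM in shCtrl and 226.5, 228.8 and 230.4 CPM in shmiR155HG. The highest control fell within the knockdown range, and the change did not pass (log2 fold change 0.08, SE 0.04, adjusted p = 0.183). Without shCtrl replicate 3 the ZAP70 log2 fold change was 0.13 and passed (adjusted p = 0.0177), the 1 call among 17 alternatives. It was 0.05 without shCtrl replicate 2 (adjusted p = 0.567). After the GC correction it was 0.01 (adjusted p = 0.926, GC content 63.5%). SYK, its relative with the same docking domains, lay at 42.0 to 50.5 CPM in shCtrl and 45.8 to 51.3 CPM in shmiR155HG, so that the groups overlapped.

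Of the Tec family kinases, which help to activate phospholipase C gamma, TXK was lower. TXK had 54.6, 55.7 and 55.0 CPM in shCtrl and 46.0, 43.5 and 50.02 CPM in shmiR155HG. The controls lay within about 1 CPM of one another and above every knockdown library, and TXK fell by 15.6% (log2 fold change -0.25, SE 0.07, adjusted p = 0.0136). The TXK call was lost after the GC correction (log2 fold change -0.19, adjusted p = 0.0541) and without shCtrl replicate 2, shmiR155HG replicate 1 or shmiR155HG replicate 2 (adjusted p = 0.0551, 0.0502 and 0.0945). TEC, the founding kinase of the family, was at 3.81 to 5.81 CPM over all libraries and was not called (log2 fold change -0.26, SE 0.21, adjusted p = 0.453). Its estimate is as low as that of TXK, with an interval from -0.69 to 0.16.

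The adaptors of the SLAM branch showed no called change. SH2D1A, which encodes SAP, was at 104 to 125 CPM in shCtrl and 118 to 120 CPM in shmiR155HG (log2 fold change 0.04, SE 0.05). SH2D1B, which encodes EAT-2, was at 41.9 to 43.7 CPM in shCtrl and 41.8 to 50.1 CPM in shmiR155HG (log2 fold change 0.08, SE 0.07). The groups of both overlapped. SH2D2A, which encodes the T cell specific adaptor TSAd, a partner of LCK, had 105, 100 and 102 CPM in shCtrl and 110, 108 and 112 CPM in shmiR155HG. All its knockdown libraries were above all controls, yet the log2 fold change of 0.11 (SE 0.05) did not pass over all genes (adjusted p = 0.129).

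Genes of the SLAM receptor family itself were mostly lower. Of the 7 tested, which are not members of the list, 5 (71.4%) were lower in shmiR155HG cells beside 8.02% of all genes, and none was higher, with a median log2 fold change of -0.26 beside 0.00 over all genes. Not all of them recruit SAP or EAT-2, since CD48 has no cytoplasmic tail and SLAMF8 lacks the tyrosine motif these adaptors bind. SLAMF8 fell from 49.3 ± 3.6 to 34.8 ± 4.4 CPM (SD, n = 3; log2 fold change -0.50, adjusted p = 9.15e-05 by edgeR). The other 4 were picked out after their values were seen. SLAMF1 had a log2 fold change of -0.31, and SLAMF7, a receptor that works through EAT-2, had -0.28. CD48, the ligand of CD244, had -0.26, and CD244 itself (also known as 2B4) -0.12. LY9 and SLAMF6 were not called, and CD84 and SLAMF9 did not pass the filter. With each library left out in turn, 4 or 5 of the receptors were lower. Whether the change of the receptors differs from that of SH2D1A and SH2D1B was not tested. Of the 4 ITAM and DAP10 adaptor chains that receptors pair with, none was called: CD247 averaged 121 CPM in shCtrl and 128 CPM in shmiR155HG, HCST 22.5 and 20.2 CPM, TYROBP 1.41 and 1.58 CPM, and FCER1G 1.81 and 1.004 CPM.

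GRAP2 had the largest change of any called member. It encodes GADS, the adaptor that ties SLP-76 to LAT (chr22:39901084-39973721, hg38, plus strand). It was measured at 52.7, 59.4 and 54.8 CPM in shCtrl and at 77.0, 71.1 and 69.1 CPM in shmiR155HG. The lowest knockdown library was well above the highest control, and GRAP2 rose by 30.3% (log2 fold change 0.38, SE 0.07, adjusted p = 0.000128). Its partners were not called. LCP2, which encodes SLP-76, was at 467 to 479 CPM in shCtrl and 479 to 499 CPM in shmiR155HG, with a log2 fold change of 0.04 and a 95% interval from -0.02 to 0.11, the narrowest of the uncalled members. LAT, the membrane scaffold, was at 170 to 171 CPM in shCtrl and 162 to 176 CPM in shmiR155HG, with an interval of the log2 fold change from -0.09 to 0.09. LAT shares 454 bases of exon with a gene on the opposite strand, and since the use of strand in counting is not given in the sources used here, reads of the pair cannot be told apart.

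The other adaptors were not called either. GRB2, the general adaptor of the Ras pathway and a relative of GADS, was at 173 to 180 CPM in shCtrl and 173 to 190 CPM in shmiR155HG (log2 fold change 0.06, SE 0.04). LAT2, a LAT relative also called NTAL, was at 64.4 to 68.2 CPM in shCtrl and 58.2 to 68.1 CPM in shmiR155HG. NCK1, which links receptors to actin, was at 33.5 to 38.8 CPM over all libraries. SH2B3, the adaptor LNK, did not pass the filter, with 5 to 33 counts in shCtrl and 4 to 55 in shmiR155HG. Of the VAV exchange factors, which switch on Rac, VAV1 carried almost all counts, at 92.8 to 104 CPM in shCtrl and 88.8 to 104 CPM in shmiR155HG (log2 fold change 0.01, SE 0.06). VAV2 had 0 counts in every library but shmiR155HG replicate 3, which had 3, and VAV3 had 0 to 12 counts, so neither was tested.

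Phospholipase C gamma cuts a membrane lipid into diacylglycerol and the calcium-releasing messenger inositol trisphosphate. PLCG1 and PLCG2, which encode its isoforms, were both lower in shmiR155HG cells. PLCG2 (chr16:81779279-81962685, hg38, plus strand) had 115, 113 and 116 CPM in shCtrl and 93.9, 103 and 90.5 CPM in shmiR155HG. The groups were apart, and PLCG2 fell by 16.5% (log2 fold change -0.26, SE 0.05, adjusted p = 0.000837). PLCG1 had 218, 223 and 229 CPM in shCtrl and 201, 203 and 214 CPM in shmiR155HG. These groups too were apart, but the gap was narrow, and PLCG1 fell by 7.78% (log2 fold change -0.12, SE 0.04, adjusted p = 0.0412). The PLCG1 call was lost with edgeR's exact test (adjusted p = 0.0574), with limma-voom (adjusted p = 0.0502) and without shCtrl replicate 2 or 3 or shmiR155HG replicate 1 or 2 (adjusted p = 0.103 to 0.173). PLCG1 also shares 221 bases of exon with PLCG1-AS1 and 268 with ZHX3, both on the opposite strand.

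The diacylglycerol kinases among the members, which remove diacylglycerol and so end Ras and protein kinase C activation, changed in opposite directions. DGKA had 49.0, 46.1 and 51.6 CPM in shCtrl and 43.5, 41.3 and 42.3 CPM in shmiR155HG. Every knockdown library was below every control, and DGKA fell by 13.3% (log2 fold change -0.21, SE 0.07, adjusted p = 0.0432). DGKZ had 264, 261 and 270 CPM in shCtrl and 288, 297 and 278 CPM in shmiR155HG. Here every knockdown library was above every control, and DGKZ rose by 8.66% (log2 fold change 0.12, SE 0.04, adjusted p = 0.0258). The DGKA call was lost with filterByExpr's filter and limma-voom (adjusted p = 0.0508 and 0.0547) and without each library in turn other than shCtrl replicate 2 (adjusted p = 0.0685 to 0.164), and DGKA shares 353 bases of exon with PYM1 on the opposite strand. The DGKZ call was lost without shCtrl replicate 1 or 2 or shmiR155HG replicate 1 or 2 (adjusted p = 0.0654 to 0.161), and after the GC correction the DGKZ log2 fold change was 0.03 (adjusted p = 0.684; GC content 65.2%).

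Among the members, the enzymes that diacylglycerol activates were not called. PRKCQ, which encodes protein kinase C theta, had 54.1, 61.6 and 54.6 CPM in shCtrl and 53.0, 53.3 and 49.0 CPM in shmiR155HG. Its groups did not overlap, but the log2 fold change of -0.13 (SE 0.07) did not pass (adjusted p = 0.219). RASGRP1, an exchange factor that loads Ras, was at 224 to 242 CPM in shCtrl and 227 to 236 CPM in shmiR155HG, with an interval of the log2 fold change from -0.08 to 0.08. It shares 2137 bases of exon with a gene on the opposite strand.

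**Figure D2:**
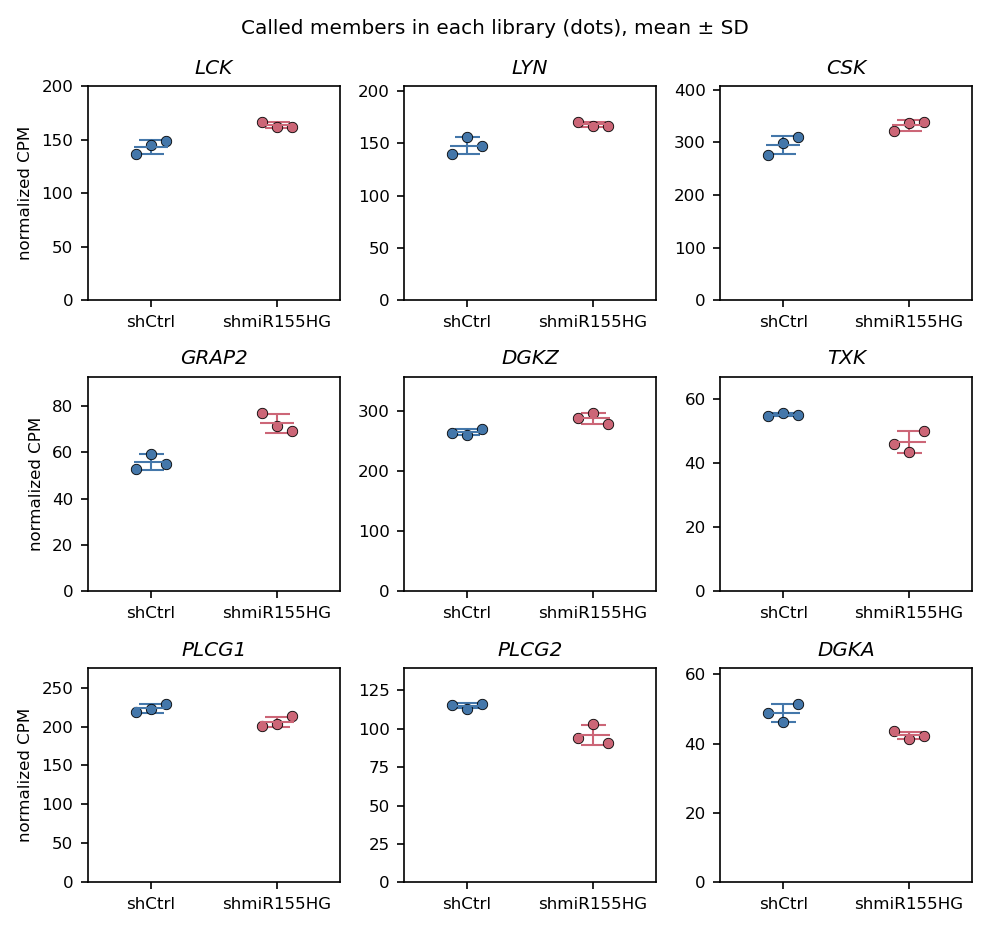
Normalized CPM (vertical axes, from 0) of the 9 called members in each of the 3 shCtrl and 3 shmiR155HG libraries; dots are libraries and bars the mean ± SD. In each of the 9 panels the groups do not overlap, and GRAP2 shows the widest relative gap, from at most 59.4 CPM in shCtrl to at least 69.1 CPM in shmiR155HG.

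None of the phosphoinositide 3-kinase subunits among the members passed the test. PIK3CD, the catalytic subunit p110 delta of lymphocytes, had the highest CPM of the members, at 519 to 579 in shCtrl and 542 to 560 in shmiR155HG (log2 fold change -0.01, SE 0.04). PIK3CG, which encodes p110 gamma, had 205, 204 and 214 CPM in shCtrl and 226, 216 and 219 CPM in shmiR155HG. Its groups were apart, yet the change did not pass (log2 fold change 0.09, SE 0.04, adjusted p = 0.139). PIK3CG was called after the GC correction (log2 fold change 0.13, adjusted p = 0.0203). PIK3R1, the regulatory subunit p85 alpha, was at 87.5 to 101 CPM in shCtrl and 94.2 to 110 CPM in shmiR155HG. PIK3R5, a partner of p110 gamma, had 5 counts in shCtrl replicate 3 and 0 in the other libraries.

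The phosphatases among the members showed no called change, though their estimates differed. PTPN6, which encodes SHP-1, the phosphatase used by inhibitory receptors of NK cells, had 16.5, 15.2 and 13.6 CPM in shCtrl and 23.95, 17.3 and 16.3 CPM in shmiR155HG. The groups overlapped slightly, shmiR155HG replicate 1 stood well above the rest, and the change did not pass (log2 fold change 0.35, SE 0.13, adjusted p = 0.0755). Without that library the PTPN6 log2 fold change was 0.16 (adjusted p = 0.516), while PTPN6 passed with no filter on low counts and without shmiR155HG replicate 3 (adjusted p = 0.0407 and 0.0423). PTPN11, which encodes the related SHP-2, had 254, 256 and 260 CPM in shCtrl and 245.3, 240.5 and 238.2 CPM in shmiR155HG. All its knockdown libraries were below all controls, but the log2 fold change of -0.09 (SE 0.04) did not pass (adjusted p = 0.104). PTPN22, a phosphatase that works beside CSK on Src kinases, was at 124 to 136 CPM in shCtrl and 118 to 133 CPM in shmiR155HG.

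The genes of the CBL ubiquitin ligases, which mark activated kinases for removal, and of the UBASH3 proteins were not called. CBL, a ubiquitin ligase, was at 114 to 124 CPM in shCtrl and 110 to 116 CPM in shmiR155HG (log2 fold change -0.10, SE 0.05, adjusted p = 0.209). CBLB, a ligase known to restrain NK cells, was at 41.1 to 43.8 CPM in shCtrl and 38.6 to 45.4 CPM in shmiR155HG. UBASH3A and UBASH3B, which bind CBL proteins and are also known as STS-2 and STS-1, were at 12.8 to 16.95 CPM and 1.29 to 3.05 CPM over all libraries. UBASH3B had the largest estimate of any member, a log2 fold change of 0.64, with an interval from -0.05 to 1.34 (adjusted p = 0.227).

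The intervals set what these libraries can say of the 26 members that were tested and not called. For 20 of them the 95% interval of the log2 fold change lay within ±0.263, a 1.2-fold change. The other 6 were YES1, TEC, PRKCQ, PTPN6, UBASH3A and UBASH3B, of which all but PRKCQ were below 25 CPM in every library. For 5 of the 26 the interval excluded 0 without the adjusted p passing, namely ZAP70, SH2D2A, PIK3CG, PTPN6 and PTPN11. Further exon overlaps with other genes, of 66 to 509 bases, were annotated for YES1, SH2D1A, LCP2, NCK1, SH2B3, PIK3CD, PTPN11, PTPN22 and CBL.

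Levels of different members were compared as CPM per kilobase of the canonical transcript. In shCtrl cells LCP2 was highest, at 112 ± 1.5 CPM per kilobase (SD, n = 3). It was followed by CSK at 108 ± 6.1, LAT at 102 ± 0.26, PIK3CD at 102 ± 5.7 and ZAP70 at 89.0 ± 5.3. CSK differed from LCP2, LAT and PIK3CD by less than its own SD. The lowest tested members were TEC at 1.47 ± 0.16, YES1 at 1.44 ± 0.44 and UBASH3B at 0.226 ± 0.036. Within families, ratios per length ranged widely in shCtrl, from 0.0395 for YES1 relative to FYN to 0.583 for CBLB relative to CBL. SYK stood at 0.106 of ZAP70 per length in shCtrl and 0.103 in shmiR155HG, TEC at 0.0772 and 0.0763 of TXK, and SH2D1B at 0.328 and 0.335 of SH2D1A. LYN stood at 0.366 of LCK in both groups, and FYN at 0.518 of LCK in shCtrl and 0.46 in shmiR155HG.

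**Figure D3:**
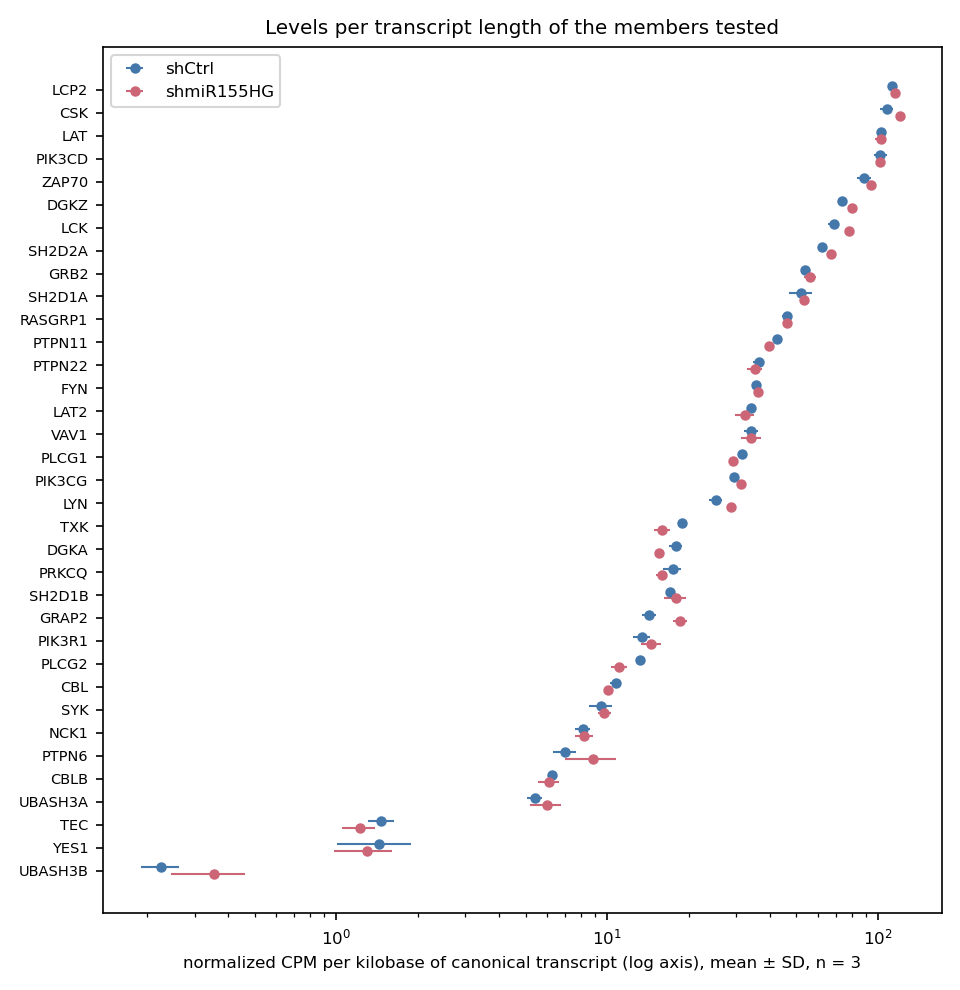
Level of each of the 35 members tested as normalized CPM per kilobase of canonical transcript (horizontal log axis), mean ± SD of 3 libraries, blue for shCtrl and red for shmiR155HG, ordered by the shCtrl level. LCP2, CSK, LAT and PIK3CD stand at the top near 100, and TEC, YES1 and UBASH3B stand apart at the bottom, below 2.

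Ratios of related genes within a library do not depend on how libraries are scaled. Of 16 pairs listed, 14 had both genes tested, and in 5 of these the log2 ratios of the groups did not overlap. DGKA relative to DGKZ had log2 ratios of -2.43, -2.50 and -2.39 in shCtrl and -2.73, -2.85 and -2.71 in shmiR155HG, a difference of -0.32. GRAP2 relative to GRB2 had -1.73, -1.54 and -1.72 in shCtrl and -1.17, -1.40 and -1.46 in shmiR155HG, a difference of 0.32. FYN relative to LCK differed by -0.17, PLCG2 relative to PLCG1 by -0.15 and PTPN6 relative to PTPN11 by 0.42. For PLCG2 and PLCG1 the groups came within 0.01 of each other. With 3 libraries against 3, the two-sided exact permutation test cannot go below p = 0.1, which each of these 5 pairs reached (adjusted p = 0.28 over the 14 pairs), so no ratio can pass at 0.05. LYN relative to LCK differed by 0.00 (exact p = 1) and SYK relative to ZAP70 by -0.04 (exact p = 0.6).

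**Figure D4:**
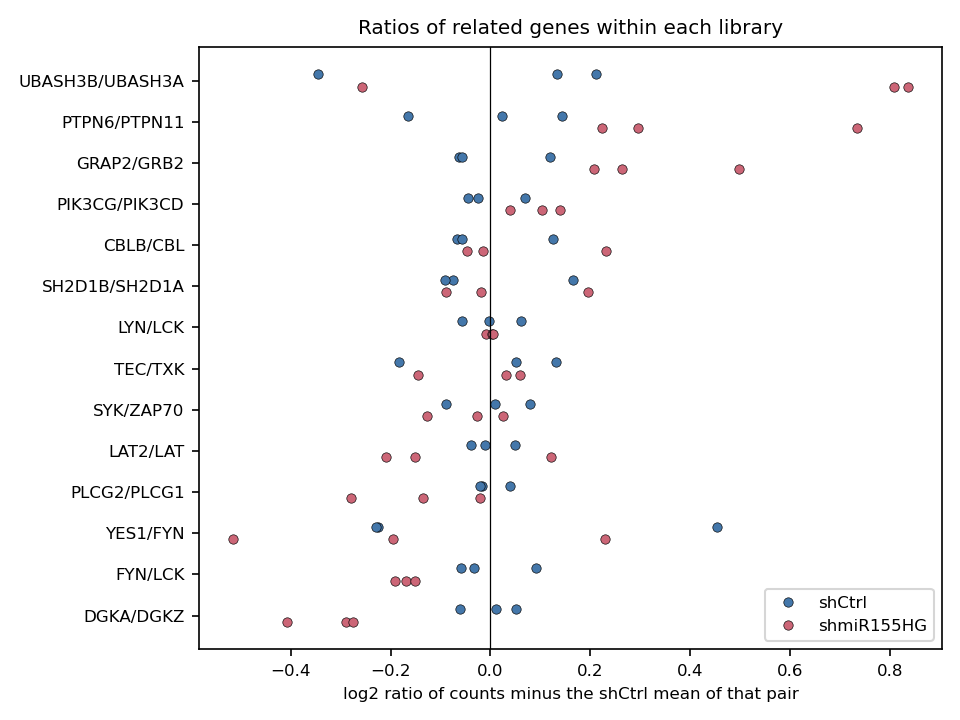
Log2 ratio of the counts of 2 related members in each library, minus the shCtrl mean of that pair (horizontal axis); each dot is a library, blue for shCtrl and red for shmiR155HG. The groups are apart for PTPN6/PTPN11, GRAP2/GRB2, PLCG2/PLCG1, FYN/LCK and DGKA/DGKZ, the first 2 higher and the last 3 lower in shmiR155HG.

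Since miR155HG is the transcript from which miR-155 is cut, the members were searched for its seed match. The mature miRNA (RefSeq, GRCh38.p14, chr21:25573983-25574006, plus strand) is shown with its seed, bases 2 to 8, in capitals, and below it the matches in the 3′UTRs of the 5 tested members that hold one, each with 10 bases on either side and the match AGCATTA in capitals, read 5′ to 3′ along the transcript (GENCODE, hg38).
hsa-miR-155-5p: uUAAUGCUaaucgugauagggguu
PLCG2: taatgggctaAGCATTAgggtgttaca
LAT2: tctcctagaaAGCATTAcatgtagttt
PIK3R1: accatgagatAGCATTAgctgcccagg
CBL: tcagacttaaAGCATTAagcagctagt
YES1: tttgaatagcAGCATTAgtggtttgag

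The matches lie at chr16:81958947-81958953 in PLCG2, chr7:74229438-74229444 in LAT2, chr5:68301319-68301325 in PIK3R1, chr11:119307492-119307498 in CBL (all on the plus strand) and chr18:722595-722601 in YES1 (minus strand). The match in CBL alone of these 5 is followed by an A, a base often seen after miRNA sites. VAV3, which was not tested, held 2 further matches. Of the 5 tested members with a match, PLCG2 was lower, none was higher, and the median log2 fold change was -0.10. Over all tested genes with an annotated 3′UTR, 11.9% held a match, and of those 10.9% were lower and 7.36% higher, beside 8.89% and 7.62% of the whole set. A match is a description of the sequence. Mature miR-155 is not measured by sequencing of poly(A) RNA, and its part in the PLCG2 difference was not tested.

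Beyond the members, 88 further genes of the pathway, listed by role, were in the table and 73 were tested, of which 10 were higher and 12 lower (30.1% called, beside 15.3% of all genes, with 7.26% higher and 8.02% lower; median log2 fold change 0.00). With a filter of a mean of at least 5 CPM, 23 of these further genes were called, beside 1856 of 9721 genes. The SLAM receptors and adaptor chains described above are 2 groups of this list. Of 3 other Src and Tec family kinases tested, 1 was higher and none lower. FGR, a Src family kinase, was at 237 to 254 CPM in shCtrl and 244 to 249 CPM in shmiR155HG. It was not called (log2 fold change 0.006, SE 0.04). Of 24 other adaptors, 2 were higher and 1 lower, of 25 lipid signalling genes 5 were higher and 4 lower, and of 10 phosphatases and ligases 2 were higher and 2 lower. Among those called with no overlap, the 3 largest rises were SH2D3C (log2 fold change 0.56), an SH2 adaptor, RASGRP2 (0.41), an exchange factor for Rap1 related to RASGRP1, and PTPN7 (0.36), a phosphatase of MAP kinases. The 3 largest falls among the same genes were PIK3R6 (-0.63), the other partner of p110 gamma beside PIK3R5, SLAMF8 (-0.50) and PIK3AP1 (-0.48), the adaptor BCAP. Of genes that act on the Src kinases, 3 are named after their values were seen, and all were called. In the groups they come from, 2 of 3 kinases, 21 of 24 adaptors and 6 of 10 phosphatases and ligases were not called. MATK, a kinase related to CSK, rose (log2 fold change 0.17, adjusted p = 0.0296). PAG1, the membrane anchor of CSK, fell from 158 ± 5.5 to 121 ± 3.6 CPM (log2 fold change -0.39, adjusted p = 3.03e-07 by edgeR). PTPRC, which encodes CD45, the phosphatase that removes the inhibitory phosphate CSK adds, fell from 738 ± 12 to 622 ± 21 CPM (log2 fold change -0.25, adjusted p = 2.84e-06 by edgeR; SD, n = 3).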

How the data were processed

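The authors aligned paired reads of 150 bases to hg38 with HISAT2, counted them with StringTie and prepDE.py3, and deposited whole-number counts per gene for the 6 libraries, without normalization. The annotation release and the strand setting are not given in the sources used here. In the knockdown group, the treatment label of replicates 2 and 3 spells the gene with a different number, and these libraries were grouped by title. Replicate pairs differed by more than sampling noise, so all 6 were kept as separate libraries.

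The analysis used edgeR 4.0.16 under R 4.3.3. A gene was kept if at least 2 libraries exceeded 1 CPM, scaling was by TMM, and the robust quasi-likelihood test was run over all 12263 genes with Benjamini-Hochberg adjustment (called: adjusted p under 0.05). CPM values are normalized. The SE of a log2 fold change is its size divided by the square root of F, and 95% intervals use the moderated degrees of freedom. Levels per length used the canonical transcript of GENCODE release 44 (hg38), which also gave 3′UTRs and GC content and may differ from the release of the authors. Pair ratios used a pseudocount of 0.5 counts. Totals of 33454786 to 39157264 counts set the precision, and counts include PCR duplicates.

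Members and gene lists were chosen with earlier results of these data known. Named genes were all members, MIR155HG and, of the other pathway genes, the 3 largest rises and 3 largest falls called with no overlap and a mean of at least 1 CPM. The SLAM family, the ITAM and DAP10 adaptor chains, FGR, MATK, PAG1 and PTPRC were named in addition, after their values were seen. Of the pathway list, FYB and GRAIL are older names with no row of their own. Alternatives covered scaling, filters, tests (exact, DESeq2 1.42.0, limma-voom with limma 3.58.1), halved counts, a replicate block, each library left out, and an added GC correction. The test was checked on simulated data.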

Additional observations from a re-analysis of the deposited data

How the results depend on the processing

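No called member changed sign under the 17 alternatives, and 23 of the 26 uncalled members stayed uncalled in all of them. The replicate numbers do not pair the libraries: deviations of same-numbered libraries correlated at -0.0179, 0.000983 and 0.00348. With a replicate block, as with limma-voom, 2 members were lower in place of 4, with PLCG1 and DGKA losing their calls (adjusted p = 0.0501 and 0.0549 with the block), and leaving out each library in turn gave 1 to 3. The fewest, 1 lower member, remained without shmiR155HG replicate 1 or without shmiR155HG replicate 2, and 2 remained without shCtrl replicate 2 or without shCtrl replicate 3. The thresholds the study states called 1017 genes in place of 1874, 1 member higher, 0 lower, and 13 of the further pathway genes in place of 22. Of the SLAM receptors, 4 or 5 were lower with each library left out and 3 under the study's thresholds. Sign changes were seen only in uncalled members (11 of the 26). LAT was at 0.00085 with DESeq2, 0.00089 with its size factors, 0.0034 with a mean CPM of at least 5 and 0.0018 with total counts. RASGRP1 was at 0.00037, 0.00034, 0.0028 and 0.0011 in the same order, and at 0.038 after the GC correction. That correction also gave CBLB 0.014, PTPN22 0.011 and VAV1 -0.026. With each library left out, the log2 fold change ranged from -0.11 to 0.010 for CBLB, -0.023 to 0.036 for LAT, -0.021 to 0.081 for NCK1, -0.050 to 0.029 for PIK3CD, -0.025 to 0.032 for RASGRP1, -0.033 to 0.097 for SH2D1A, -0.0029 to 0.13 for SH2D1B, -0.037 to 0.093 for SYK, -0.034 to 0.077 for VAV1 and -0.35 to 0.12 for YES1. The cause of these changes was not tested, beyond fewer libraries where some are left out.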
